A study of Rattus norvegicus with 6 samples.

Results

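The genes described here encode the proteins that fold, hydroxylate, glycosylate, export, trim and crosslink collagen. They were chosen by symbol from a list of 34 genes, and 31 of these have a protein-coding row among the 44746 genes measured in rat condylar cartilage. Crtap, Mia3 and Pcolce2 were not analysed here. Whole-transcriptome sequencing was performed on condylar cartilage of female Sprague-Dawley rats that were 6 weeks old at the start. The UAC group (3 libraries) had undergone unilateral anterior crossbite, a dental procedure that gives the temporomandibular joint an abnormal bite and is used as a rat model of its osteoarthritis, and its tissue was taken after 8 weeks. The control group, CON (3 libraries), was taken at the same time. How many rats contributed to a library is not given in the sources used here, so a p value measures only the spread between these libraries, which may be technical.

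Collagen chains enter the endoplasmic reticulum (ER), where prolyl and lysyl hydroxylases modify them before the triple helix closes. Chaperones such as Hsp47 hold the folded helix, and large COPII carriers take procollagen out of the ER. Proteinases of the tolloid and ADAMTS families then cut off the C- and N-propeptides, which lets fibrils form, and lysyl oxidases start the crosslinks that give the fibril its strength. Mandibular condylar cartilage is a fibrocartilage with a fibrous surface layer, and it contains type I collagen as well as the type II collagen of hyaline cartilage.

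The libraries held between 71524713 and 86523541 counts assigned to genes in UAC and between 80960444 and 85923949 in CON. Levels are given as FPKM, fragments per kilobase of gene model scaled to the mapped fragments of the library. The counts of both groups were compared by the quasi-likelihood test of edgeR, with Benjamini-Hochberg adjustment over the 30668 genes whose mean FPKM was at least 0.1, and all 31 collagen-processing genes passed that filter. Fold changes are UAC over CON on the log2 scale. Their standard error (SE) was calculated from the fitted fold change and the F statistic of that test. The edgeR test draws the error of a gene partly from the other genes. Its p values and the SE thus do not measure the gene's own spread alone. Of the chondrocyte markers, Col2a1 averaged 1448 FPKM in UAC and 1447 FPKM in CON and Acan 244 and 230 FPKM, whereas Matn1 was listed at 0.0001 FPKM, the value the files use for absent, in all UAC libraries and in CON 2 and CON 3. Markers of bone were also high, with Bglap at 1231 FPKM in UAC and 1302 FPKM in CON.

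None of the 31 genes passed an adjusted p under 0.05 in the UAC to CON comparison, and most had a slightly lower level in UAC. The log2 fold change was negative for 25 and positive for 6 of them, with a median of -0.16, against a median of -0.002 over all genes tested and -0.038 over the 15001 protein-coding genes tested. Negative fold changes made up 50.3% of all genes and 58% of protein-coding genes. Their smallest adjusted p was 0.441 (edgeR), at Bmp1, and over all genes 0.0196% passed. At an unadjusted p under 0.05 there were 4 lower in UAC (Bmp1, P3h3, P3h1 and Adamts2) and 0 higher. Over all genes tested 9.08% had such a p in either direction. By direction the share was 4.39% of all genes lower and 4.69% higher, and 6.57% lower and 3.81% higher among protein-coding genes. With DESeq2, 1 member (Bmp1, adjusted p = 0.00216) passed the adjusted threshold, among 357 genes in all, and with limma 0 members passed. The study's own thresholds, an unadjusted p under 0.05 with an absolute log2 fold change above 1, were met by 0 members, against 0.681% of all genes lower and 1.2% higher. In bulk tissue, fewer cells of a type and less RNA per cell cannot be told apart.

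**Figure D1:**
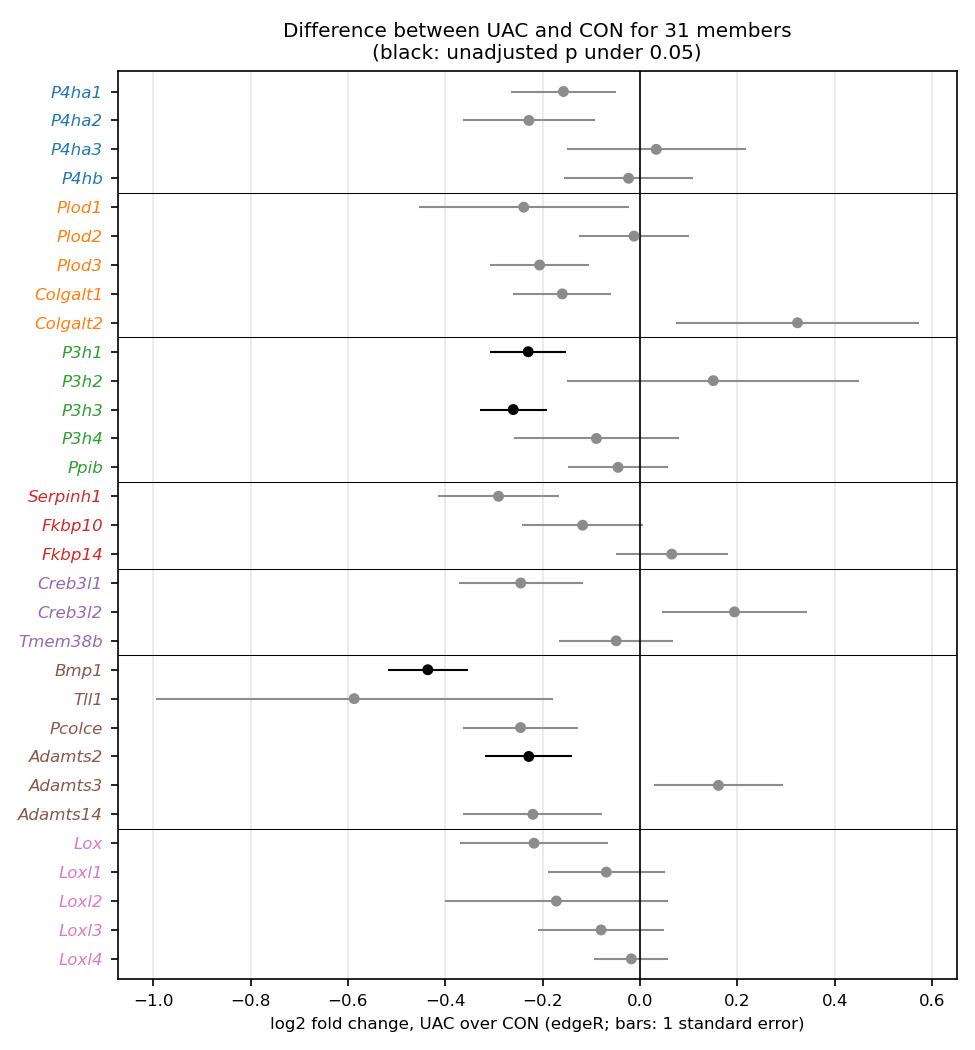
Log2 fold change of each of the 31 genes, UAC over CON (x axis), grouped from top to bottom by role. Bars are 1 SE, calculated from the F statistic of edgeR (n = 3 libraries each). Points lie between -0.59 (Tll1) and 0.32 (Colgalt2), 25 of them left of 0, and the 4 black points are the genes at an unadjusted p under 0.05.

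The prolyl 4-hydroxylase makes the hydroxyproline that keeps the collagen helix stable, from catalytic alpha subunits (P4ha1 to P4ha3) and the beta subunit P4hb, which is also a protein disulfide isomerase. P4hb had 166, 219 and 200 FPKM in UAC, against 192, 191 and 196 FPKM in CON. P4ha1, its main alpha subunit here, had 84.2, 103 and 95.5 FPKM in UAC, against 103, 98.9 and 105 FPKM in CON. The groups overlapped for both genes, and UAC 1 was the lowest library. The log2 fold changes were -0.024 (SE 0.13, adjusted p = 0.974) for P4hb and -0.16 (SE 0.11, adjusted p = 0.694) for P4ha1 with edgeR. P4ha2 had 14.6, 19.4 and 16.6 FPKM in UAC and 20.7, 18.5 and 18.5 FPKM in CON, with overlap between the groups (log2 fold change -0.23, edgeR adjusted p = 0.649). P4ha3 was the least abundant, at 4.10 ± 0.776 FPKM in UAC and 3.90 ± 0.449 FPKM in CON (SD, n = 3 each). P4ha1 made up 81.8% of the alpha subunit FPKM in UAC and 81.5% in CON.

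Lysyl hydroxylases make the hydroxylysine used for sugars and for crosslinks. Plod2, which acts on the telopeptide lysines at the ends of the helix, had 38.6, 41.6 and 46.2 FPKM in UAC, against 42.0, 41.5 and 40.4 FPKM in CON. The CON values lay inside the UAC range, and the log2 fold change was -0.012 (SE 0.11, edgeR adjusted p = 0.983). Plod3, which also adds glucose to galactosylated hydroxylysine, had 22.1, 25.9 and 25.3 FPKM in UAC, against 29.0, 26.5 and 26.8 FPKM in CON. All UAC libraries lay below all CON libraries for Plod3, with a log2 fold change of -0.21 (SE 0.10, unadjusted p = 0.0818, edgeR adjusted p = 0.586). Its row also carries the name Mir702 and overlaps Znhit1 on the other strand. The strand setting of the counting is not given in the sources used here. Plod1, which acts on lysines within the helix, had 22.0 ± 5.95 FPKM in UAC and 25.4 ± 1.91 FPKM in CON (SD, n = 3 each), and its lowest UAC library was at 15.7 FPKM. Colgalt1 and Colgalt2 add galactose to hydroxylysine. Colgalt1 had 14.5, 16.7 and 15.0 FPKM in UAC and 16.8, 17.4 and 16.0 FPKM in CON, and the less abundant Colgalt2 averaged 5.01 ± 1.31 FPKM in UAC and 3.91 ± 0.875 FPKM in CON. The groups overlapped for both, and their log2 fold changes of -0.16 and 0.32 had edgeR adjusted p values of 0.668 and 0.729.

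Prolyl 3-hydroxylation modifies few prolines of the chain and is done by P3h1 in a complex with Crtap and the cyclophilin Ppib, which also speeds folding as a prolyl isomerase. P3h1 had 35.4, 37.0 and 37.1 FPKM in UAC, against 40.8, 42.8 and 40.9 FPKM in CON. P3h3, which in mice works with P3h4 and Plod1 in lysine hydroxylation, had 23.3, 22.8 and 21.9 FPKM in UAC, against 27.2, 26.0 and 25.9 FPKM in CON. For both genes each UAC library lay below each CON library, and the spread within a group was smaller than the gap between the group means. The UAC level was 85.3% of CON for P3h1 (log2 fold change -0.23, SE 0.08, unadjusted p = 0.0225, edgeR adjusted p = 0.511). It was 83.5% for P3h3 (log2 fold change -0.26, SE 0.07, unadjusted p = 0.00711, edgeR adjusted p = 0.465). Ppib, the most abundant of the group, had 124, 147 and 148 FPKM in UAC and 142, 138 and 141 FPKM in CON, with CON inside the UAC range (log2 fold change -0.045). P3h4, a partner without hydroxylase activity of its own, averaged 21.5 FPKM in UAC and 22.2 FPKM in CON, and P3h2, which prefers basement membrane collagen, 4.83 ± 1.88 FPKM in UAC and 4.25 ± 0.178 FPKM in CON. Both overlapped between the groups.

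Serpinh1 encodes Hsp47, the collagen-specific chaperone, and was the most abundant gene of the list. It had 472, 502 and 591 FPKM in UAC, against 610, 628 and 620 FPKM in CON. Each UAC library lay below each CON library, and UAC 3 was close to the lowest CON library. The UAC level was 81.8% of CON (log2 fold change -0.29, SE 0.12, unadjusted p = 0.0523, edgeR adjusted p = 0.554). Fkbp10 and Fkbp14, prolyl isomerases of the ER that are also collagen chaperones, had log2 fold changes of -0.12 and 0.065. The Fkbp14 row also holds an assembled transcript listed as long noncoding. It had 4.8, 5.9 and 5.9 FPKM in UAC and 4.4, 4.6 and 5.1 FPKM in CON. Fkbp10 averaged 83.9 ± 8.65 FPKM in UAC and 88.4 ± 5.56 FPKM in CON, and the groups overlapped.

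An assembled antisense transcript lies on the other strand inside the Serpinh1 row, at positions 164301099 to 164301422 of chromosome 1 in the coordinates of the files, whose genome build is not given in the sources used here. Its level was 0.0001, 0.0570 and 0.0001 FPKM in UAC, against 49.9, 0.0001 and 42.1 FPKM in CON. The transcript was thus high in CON 1 and CON 3 only, with CON 2 like the UAC libraries, and its gene row had an unadjusted p of 0.00581 and an edgeR adjusted p of 0.452. Serpinh1 itself was at 628 FPKM in CON 2, the highest of the 6 libraries, while the antisense transcript was listed as absent there. Without a known strand setting, reads of Serpinh1 and of this transcript cannot be told apart. In total 15 assembled long noncoding transcripts and 23 circRNAs lie at member loci. A transcript inside the P3h3 row, also on the other strand, had 1.52, 1.22 and 1.65 FPKM in UAC and 1.81, 1.98 and 1.80 FPKM in CON. Its gene row had an unadjusted p of 0.0320 and an edgeR adjusted p of 0.525. The circRNAs had 1, 13 and 16 junction reads in UAC and 10, 13 and 15 in CON, too few for a comparison.

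Creb3l1 and Creb3l2 are ER-membrane transcription factors that are cut free to enter the nucleus, and in mice they support collagen export in bone and in cartilage. Creb3l1 had 40.9, 35.0 and 47.7 FPKM in UAC, against 46.0, 51.0 and 44.7 FPKM in CON. The groups overlapped through UAC 3, and the log2 fold change was -0.24 (SE 0.13, unadjusted p = 0.0977, edgeR adjusted p = 0.603). Creb3l2 was at 4.62 ± 0.531 FPKM in UAC and 3.93 ± 0.642 FPKM in CON, and its row overlaps Dgki on the same strand. Tmem38b, an ER cation channel whose loss causes brittle bone, was at 3.10 ± 0.151 FPKM in UAC and 3.11 ± 0.279 FPKM in CON (SD, n = 3 each).

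The largest difference relative to its error was at Bmp1, the proteinase that removes the C-propeptide of fibrillar procollagens and also activates lysyl oxidase. Bmp1 had 23.5, 20.2 and 21.1 FPKM in UAC, against 28.3, 29.0 and 27.5 FPKM in CON. The groups did not overlap, and the highest UAC library was below the lowest CON library. The UAC level was 73.9% of CON (log2 fold change -0.44, SE 0.08, unadjusted p = 0.00122, edgeR adjusted p = 0.441). Over the 13 alternative settings its adjusted p ran between 0.00216 (DESeq2) and 0.841, and its unadjusted p stayed under 0.05 in all 13. Tll1, a relative of Bmp1, was at a low level, with 0.229 FPKM in UAC and 0.334 FPKM in CON. The Tll1 row overlaps AABR07025074, a protein-coding row on the other strand. Pcolce binds the C-propeptide and speeds its removal. It had 155, 170 and 152 FPKM in UAC, against 181, 202 and 165 FPKM in CON, with overlap between UAC 2 and CON 3 (log2 fold change -0.25, SE 0.12, edgeR adjusted p = 0.583).

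Adamts2, Adamts3 and Adamts14 remove the N-propeptide. Adamts2 had 11.2, 11.5 and 11.1 FPKM in UAC, against 12.7, 13.6 and 12.01 FPKM in CON. Each UAC library lay below each CON library, by a small margin against CON 3. The log2 fold change was -0.23 (SE 0.09, unadjusted p = 0.0388, edgeR adjusted p = 0.538). Adamts14 had 5.34, 3.56 and 4.99 FPKM in UAC and 5.55, 5.11 and 4.99 FPKM in CON, with UAC 2 the lowest library and overlap between the rest. Adamts3 averaged 4.53 ± 0.233 FPKM in UAC and 3.93 ± 0.705 FPKM in CON. Its share of the summed FPKM of these proteinases was higher in each UAC library than in each CON library (22.2% against 17.9%), which gave the smallest p that 3 against 3 libraries allow (exact permutation test, two-sided, p = 0.1, and 0.7 after adjustment over 21 comparisons of shares).

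**Figure D2:**
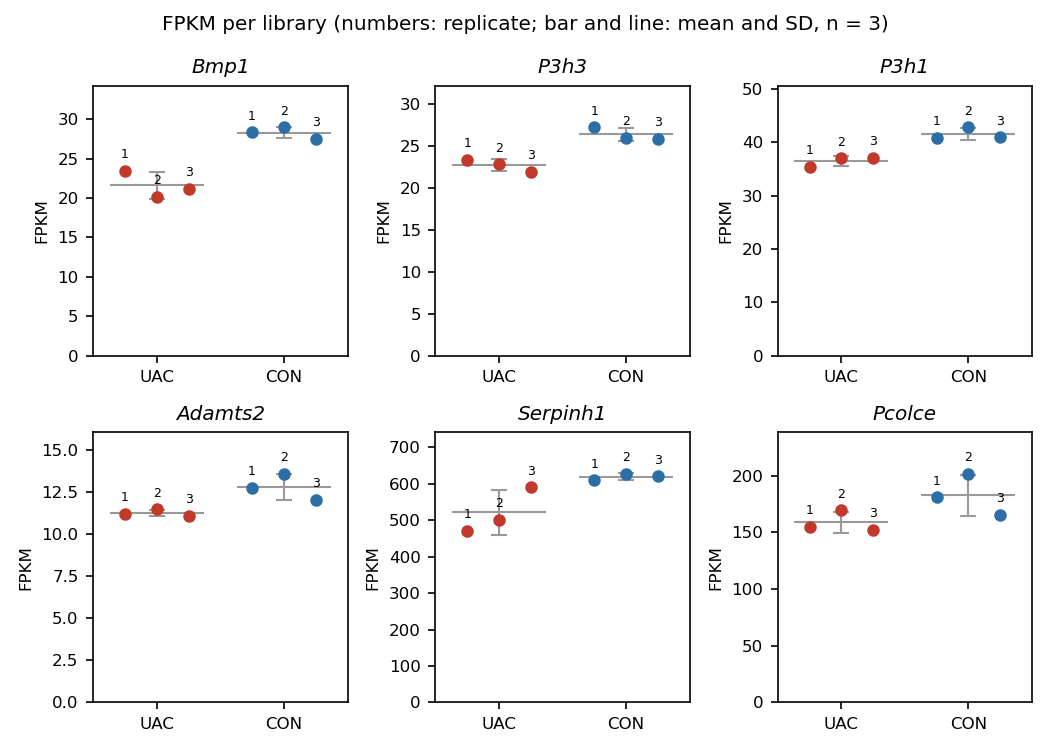
FPKM of 6 genes in each library (points, numbered by replicate) with the mean and SD (n = 3 libraries each), UAC left of CON. Bmp1, P3h3, P3h1, Adamts2 and Serpinh1 show no overlap between the groups, and Pcolce overlaps at UAC 2 and CON 3.

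Lysyl oxidases oxidise lysine and hydroxylysine to the aldehydes from which crosslinks form. Lox had 38.3, 48.2 and 48.0 FPKM in UAC, against 43.7, 56.4 and 51.8 FPKM in CON. The groups overlapped, and the log2 fold change was -0.22 (SE 0.15, edgeR adjusted p = 0.701). Loxl2 was about as abundant but spread widely in UAC, at 30.0, 55.9 and 44.0 FPKM, against 51.2, 44.8 and 46.9 FPKM in CON. The Loxl2 row also carries the name AABR07018321. Loxl1, Loxl3 and Loxl4 had log2 fold changes of -0.069, -0.080 and -0.018. The Loxl4 row overlaps the protein-coding R3hcc1l on the other strand. All 5 lysyl oxidases were negative without any reaching an unadjusted p under 0.05. Lox made up 36.0% of the family's FPKM in UAC and 37.3% in CON, and Loxl2 34.1% in UAC and 35.1% in CON (exact permutation test, two-sided, p = 0.7 and 0.8).

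**Figure D3:**
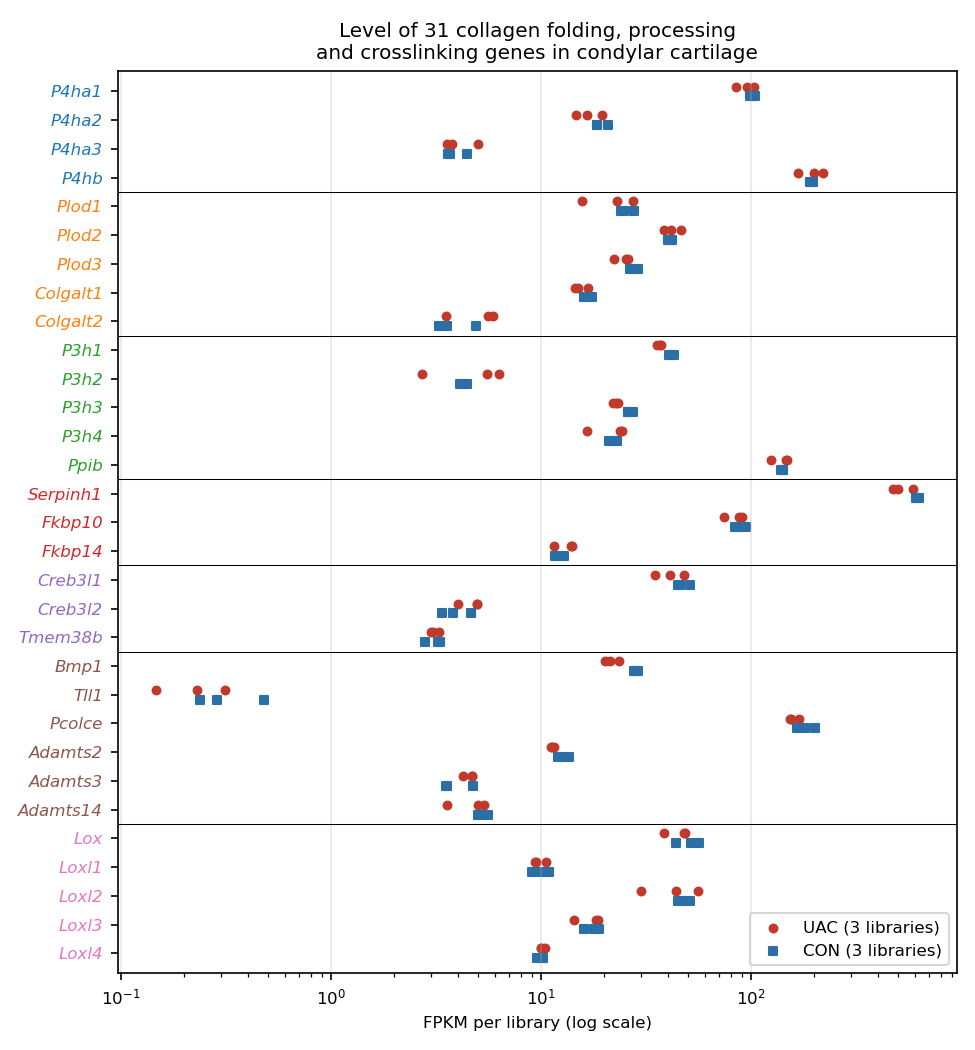
FPKM of the 31 genes in each library (x axis, log scale), with UAC above CON for each gene and roles separated by lines. Levels run between 0.146 FPKM (Tll1) and 628 FPKM (Serpinh1).

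The level of a gene depends on the length of the gene model that FPKM divides by. The length implied by counts and FPKM was over 10 kb for 6 members, against a median of 3.49 kb. Among the 6 were Bmp1 (13.4 kb), Adamts2 (15.1 kb), Plod2 (28.0 kb) and Creb3l2 (47.3 kb), the longest. Plod2 therefore took 47.7% of the lysyl hydroxylase FPKM in UAC and 43.9% in CON, but 88.6% and 87.0% of their counts. Creb3l2 averaged 16217.8 counts per library against 10912.7 for Creb3l1, although its FPKM was lower. Whether those counts include intron reads was not tested. Whether the Plod2 counts include reads of the transcript on the other strand was not tested either. The edgeR fold changes of UAC over CON were fitted to counts and use no gene length.

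Seen by role, propeptide processing had the lowest median log2 fold change (-0.24 over 6 genes, 2 at an unadjusted p under 0.05), and the prolyl 3-hydroxylation group had the other 2 such genes (median -0.090 over 5 genes). Medians were -0.16 for the lysyl hydroxylases and galactosyltransferases, -0.12 for the chaperones, -0.090 for the prolyl 4-hydroxylase, -0.080 for the lysyl oxidases and -0.049 for export and regulation. In FPKM, all UAC libraries lay below all CON libraries for 6 of the 31 genes (Plod3, P3h1, P3h3, Serpinh1, Bmp1 and Adamts2) and above them for 0. Over all genes tested these shares were 5.87% and 9.84%, and 8.03% of protein-coding genes lay below.

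The low values were most often in UAC 1. Its median over the 31 genes was -0.22 on the log2 scale relative to the CON mean, against 0.011 in UAC 2 and -0.060 in UAC 3, whereas the median over all genes in UAC 1 was 0.076. UAC 1 was the lowest of the 6 libraries for 18 genes and the highest for 0. Without UAC 1 the median log2 fold change was -0.022, 18 genes were negative, Bmp1 and P3h3 remained lower at an unadjusted p under 0.05 and Colgalt2 and P3h2 were higher, against 5.6% of all genes lower and 4.67% higher in that fit. Without UAC 2, 8 genes were lower and 0 higher (3.82% and 4.34% of all genes). Without CON 2, Bmp1 and P3h3 were lower and 0 genes higher (2.6% and 3.07% of all genes). Without CON 1, 3 genes were lower and Adamts3 was higher (2.87% and 3.57% of all genes). The coefficient of variation was larger in UAC than in CON for 22 of the 31 genes (71%, against 59.4% of all genes), with medians of 10.5% in UAC and 6.11% in CON, against 17.9% and 14.4% over all genes.

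**Figure D4:**
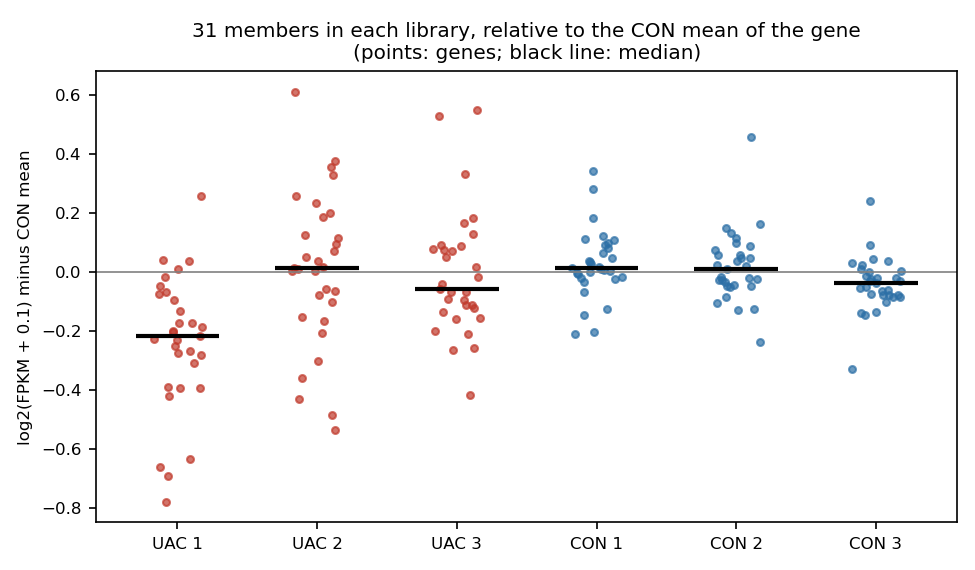
Log2(FPKM + 0.1) of each of the 31 genes in each library minus the CON mean of that gene (points), with the median over genes (black line). UAC 1 sits at a median of -0.22 with 27 of 31 genes below 0, and the other libraries lie between -0.060 and 0.011.

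Levels of marker genes for cells of the condylar cartilage and of other tissues differed between libraries. The summed FPKM of 10 skeletal muscle genes was 331, 37.1 and 32.8 in UAC and 117, 196 and 89.5 in CON, highest in UAC 1, and 0 of them passed an unadjusted p under 0.05. Of 11 blood and marrow genes 5 were higher in UAC at that p, among them Lyz2 and Jchain. The sums of the 11 genes were 6915 to 8429 in UAC and 4684 to 7237 in CON. A large part of these sums came from the globin genes Hba-a1 and Hbb, which did not pass. They averaged 3112 and 996 FPKM in UAC and 2573 and 799 FPKM in CON. Of 9 osteoblast genes all had negative log2 fold changes and 2 were lower (Ibsp and Sp7), with sums of 3269 to 3792 in UAC and 3634 to 4093 in CON when Col1a1 is left out. Ibsp, bone sialoprotein, had 369, 353 and 380 FPKM in UAC and 527, 517 and 545 FPKM in CON (unadjusted p = 0.000331, edgeR adjusted p = 0.328). Of 11 chondrocyte genes 1 was lower (Col11a2), and of 8 fibrous layer genes 0 passed, with sums of 1442 to 2812 and 521 to 612 in UAC and 1737 to 2710 and 505 to 574 in CON. Of 6 endothelial genes 1 was lower and of 5 adipocyte genes 3 were higher, with sums of 34.7 to 40.3 and 16.0 to 27.0 in UAC and 40.4 to 47.5 and 13.0 to 14.7 in CON. Those 3 adipocyte genes, Adipoq, Plin1 and Cidec, each averaged under 1 FPKM, and Fabp4 and Lpl made up most of the adipocyte sums. Over all genes tested 4.39% were lower and 4.69% higher at that p. The part of these marker differences in the collagen-processing genes was not tested.

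The substrates of these enzymes did not pass the adjusted test either. Of 10 fibrillar collagen chain genes 10 had negative log2 fold changes, with a median of -0.28, and 1 had an unadjusted p under 0.05. That gene was Col11a2 (-0.40, SE 0.14, unadjusted p = 0.0232), whose row also carries the name Rxrb. Col1a1 had 14398, 12925 and 12071 FPKM in UAC, against 14986, 16938 and 14960 FPKM in CON, and its groups did not overlap (log2 fold change -0.30, SE 0.28, edgeR adjusted p = 0.786). Col2a1 had 1014, 1972 and 1358 FPKM in UAC and 1909, 1182 and 1252 FPKM in CON (log2 fold change -0.032). Col3a1 and Col5a2 had log2 fold changes of -0.44 and -0.27. The summed FPKM of the 31 genes was 10.2% ± 1.39 of the summed FPKM of the collagen chains in UAC and 9.49% ± 0.441 in CON (SD, n = 3 each), a difference within the spread (exact permutation test, two-sided, p = 0.6). Most of the collagen sum was Col1a1, with 14398 of 16846.5 FPKM in UAC 1 and 14986 of 19035.8 FPKM in CON 1. Col1a2 was not analysed here and is not in the sum.

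Of 19 partners of collagen biosynthesis, 3 had an unadjusted p under 0.05, all lower in UAC. They were Slc39a13, a zinc transporter (log2 fold change -0.24, unadjusted p = 0.00959), Postn, a matrix protein that in mice helps Bmp1 act on lysyl oxidase (-0.50, unadjusted p = 0.0411), and the ER isomerase Fkbp7 (-0.27, unadjusted p = 0.0484). Of 15 general ER folding factors 2 were lower, Hspa5 (BiP, -0.28, unadjusted p = 0.046) and its cochaperone Dnajc3 (-0.23, unadjusted p = 0.0403), and Hyou1 was at -0.12. Of 15 COPII export genes 2 were lower, Tfg (-0.51, unadjusted p = 0.0014), which organises carriers at ER exit sites, and the cargo adaptor Sec24c (-0.23, unadjusted p = 0.0203), and Klhl12, which helps enlarge the carriers for procollagen, was at -0.17. In these 3 lists and among the collagen chains no gene was higher at that p, and none passed the adjusted test with edgeR. The share over all genes was 4.39% lower and 4.69% higher, and over protein-coding genes 6.57% lower and 3.81% higher.

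The promoters of P3h1, P3h3, Adamts2 and Serpinh1 are shown because these genes and Bmp1 had the 5 smallest unadjusted p values of the list. That of Plod3, whose groups did not overlap either, is not printed, and its window held 1 GC box. They are windows of 300 bases (250 before and 50 after the annotated start) from RefSeq, build GRCr8, read 5′ to 3′. Capitals mark the letters GGGCGG, a GC box, and the letters CCAAT, the motif bound by NF-Y, on either strand.
P3h1 promoter, chr5:138126990-138127289, plus strand: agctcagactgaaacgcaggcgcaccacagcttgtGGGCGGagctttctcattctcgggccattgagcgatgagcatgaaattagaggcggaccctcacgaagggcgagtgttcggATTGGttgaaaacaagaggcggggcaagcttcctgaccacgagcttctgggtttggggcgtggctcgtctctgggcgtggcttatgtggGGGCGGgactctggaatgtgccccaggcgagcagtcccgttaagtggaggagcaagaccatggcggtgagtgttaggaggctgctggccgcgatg
P3h3 promoter, chr4:159347955-159348254, minus strand: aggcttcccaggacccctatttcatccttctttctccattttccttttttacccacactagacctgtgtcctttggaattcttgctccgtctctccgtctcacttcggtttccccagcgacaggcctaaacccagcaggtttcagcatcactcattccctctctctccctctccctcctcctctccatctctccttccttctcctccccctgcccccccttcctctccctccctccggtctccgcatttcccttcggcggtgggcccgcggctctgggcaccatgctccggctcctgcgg
Adamts2 promoter, chr10:35421780-35422079, plus strand: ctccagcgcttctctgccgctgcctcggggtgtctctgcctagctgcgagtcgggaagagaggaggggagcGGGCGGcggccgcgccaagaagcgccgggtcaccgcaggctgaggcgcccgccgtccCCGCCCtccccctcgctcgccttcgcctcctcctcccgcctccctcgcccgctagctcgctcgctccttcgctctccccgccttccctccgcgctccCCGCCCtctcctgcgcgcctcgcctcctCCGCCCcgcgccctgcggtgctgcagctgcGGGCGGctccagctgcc
Serpinh1 promoter, chr1:163062927-163063226, minus strand: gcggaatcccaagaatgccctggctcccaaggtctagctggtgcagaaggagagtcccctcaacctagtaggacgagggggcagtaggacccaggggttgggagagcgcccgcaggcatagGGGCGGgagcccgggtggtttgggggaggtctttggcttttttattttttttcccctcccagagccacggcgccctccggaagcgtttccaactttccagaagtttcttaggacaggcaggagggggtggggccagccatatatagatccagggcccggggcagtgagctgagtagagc
P3h1 held 2 GC boxes and 1 CCAAT, Adamts2 held 5 GC boxes, Serpinh1 held 1, and none of the 7 motifs searched was found in the P3h3 window. Bmp1 is named only. Of the 31 genes, 27 matched a window, and 20 of these held GGGCGG, against 34.9% of 27457 windows over all genes and 43.1% of those of protein-coding genes. CCAAT was found in 8 of the 27, against 37.7% of all windows. ACGTG, the core of the hypoxia response element, was found in 7 (Adamts3, Fkbp14, P3h4, P4ha1, P4ha2, Plod2 and Ppib), against 19.7% of all windows. TATAAA was found in 1 (against 14.3%), TGACGTGG, which contains ACGTG, in 1 (against 0.637%), and TGACGTCA in 0 (against 1.91%). The ER stress element, CCAAT and CCACG separated by 9 bases, was found in 0 (against 0.0765%). Among windows of protein-coding genes the shares were 38.4% for CCAAT, 20.4% for ACGTG and 13.1% for TATAAA. The median GC content of the windows was 65% for the 27 genes, against 52.3% for all windows and 55.3% for those of protein-coding genes. The share with a GC box was not compared at equal GC content. These matches are a description of the letters in the window.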

How the data were processed

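RNA of condylar cartilage was measured in 3 UAC and 3 CON libraries. Per the authors' methods and the submitters' notes, adaptors and poor bases were removed with cutadapt 1.9, quality was read with FastQC, mapping used Bowtie2 and Hisat2, and StringTie gave assemblies and levels. Genome build and strand setting: not given in the sources used here. Counts and FPKM of genes, FPKM of lncRNA transcripts and junction counts of circRNAs were used as deposited by the authors. The deposited SRPBM score of circRNAs and the deposited coverage of lncRNA transcripts were not used. Columns of the authors' own comparisons (fold changes and p values) were not used.

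Only rows typed as protein-coding were used. Where several of them carried a member's symbol, the row with the highest mean FPKM was taken. Counts were fitted with edgeR 4.0.16 (TMM, quasi-likelihood, R 4.3.3) across all 6 libraries, group only, over genes averaging 0.1 FPKM or more, with an adjusted p threshold of 0.05. Shares were compared by exact permutation. DESeq2 1.42.0, limma 3.58.1 on log2 of FPKM plus 0.1 or 1, other filters and scaling, a replicate block and each library left out were alternatives. The main edgeR fit was tested on simulated counts whose fold changes were larger than those of the members. Recovery of changes as small as those of the members was not tested. No library pair had counts within sampling noise of each other.

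The members, the gene lists, the tests and the alternatives were chosen with earlier results of these data known. Genes given with values in each library are the 12 members with the smallest unadjusted p and the most abundant member of each of 7 roles. In the lists of collagen chains, partners, ER folding and COPII export, the 3 genes with the smallest unadjusted p per list are given by their fold change, and Col1a1 and Col2a1 by their values in each library. Loxl2, the marker genes, the antisense transcript at Serpinh1 and the transcripts inside the Plod2, P3h3 and Fkbp14 rows were added after their values were seen.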

Additional observations from a re-analysis of the deposited data

How the results depend on the processing

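Over the 13 alternatives, 0 members met the study's thresholds in each, and members lower at an unadjusted p under 0.05 numbered 2 to 8 when 1 library was left out and 4 or 5 otherwise, while the share of all genes lower at that p ran between 2.6% and 5.6%. Members higher numbered 0 to 2 with 1 library left out, and their median log2 fold change ran between -0.19 and -0.022. The genes called over the whole table numbered 6, against 357 with DESeq2, 2 at a mean FPKM of at least 1, 3 and 2 with limma on log2 of FPKM plus 0.1 and plus 1, and 5 to 14 with 1 library left out. The cause of these differences was not tested. Bmp1 passed the adjusted threshold with DESeq2 (log2 fold change -0.43).

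With a replicate block 0 genes were called over the whole table and 5 members were lower, Pcolce added. Same-numbered UAC and CON libraries had correlations of -0.020, -0.012 and -0.031 of their deviations from the group means. No shared deviation was seen, but such correlations cannot show whether same-numbered libraries were harvested or handled together.

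Small differences turned direction. With 1 library left out the log2 fold change ran between -0.14 and 0.10 for P4hb, -0.085 and 0.068 for Plod2 and -0.10 and 0.053 for Ppib, each highest without UAC 1. With limma it was 0.0060 for P4hb at both pseudocounts, and for Plod2 0.026 at both. With 1 library left out, share differences in percentage points ran between -0.300 and 0.810 (P4ha1), -1.16 and 0.0488 (P3h1), -3.55 and 0.509 (Lox), -0.0522 and 1.01 (Loxl1), -3.58 and 1.32 (Loxl2), -0.136 and 0.290 (Bmp1), -2.48 and 1.07 (Adamts14), and -0.0201 and 1.37 for members over collagen chains. The lowest depth was at Tll1 (0.229 FPKM in UAC and 0.334 FPKM in CON) and at the circRNAs, whose values carry the largest counting error.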
